A study of Caenorhabditis elegans with 12 samples.

Results

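HSP90, 3 of its cochaperones and a pair of BAG genes of Caenorhabditis elegans were followed, taken by sequence name as 6 of the 22010 genes in the deposited tables. They are the cytosolic HSP90 gene hsp-90 (also called daf-21; C47E8.5) and the cochaperone genes sti-1 (R09E12.3), cdc-37 (W08F4.8) and unc-45 (F30H5.1). Those with a BAG domain are unc-23 (H14N18.1) and bag-1 (F57B10.11). The study asked how the affl-2(sy975) mutation changes the transcriptional response to heat shock. affl-2 encodes a homolog of the AF4/FMR2 family, which in mammals scaffolds transcription elongation complexes. Whole animals at the L4 larval stage were sampled in 4 groups of 3 libraries, and each plate held 250 picked animals for 30 min.

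The groups were heat-shocked affl-2 mutants and unheated affl-2 mutants, both of strain PS8060, and heat-shocked and unheated wild type of strain N2. Heat shock was a water bath at 33 °C, and unheated plates stayed at 20 °C, with parafilm around all plates. All groups were fed OP50 bacteria. The mutant is represented by 1 strain with 1 allele, and no second allele or rescued strain was analysed here. Separate cultures are not stated in the labels, and the p-values therefore reflect how far these libraries differ, which may be technical. Because whole animals were measured, fewer cells of a type and less RNA per cell cannot be told apart.

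HSP90 is a dimeric ATP-driven chaperone that takes partly folded clients, among them protein kinases and steroid receptors, through the last steps of their maturation. Cochaperones hand clients over from HSP70, load particular client classes, or set the pace of the ATP cycle. BAG-domain proteins act on HSP70, where they release ADP and with it the bound client. In C. elegans body-wall muscle, HSP90 and UNC-45 together fold the myosin motor, and mutants of unc-23 lose the attachment of head muscle.

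Estimated counts summed to between 17.97 and 22.66 M per library. Levels are given as CPM, which are counts divided by library size and TMM factor, or as TPM. TPM is scaled for transcript length and was used to compare genes with each other. The mRNA of affl-2 stood at 16.3 to 19.2 CPM in heat-shocked affl-2 animals and 15.2 to 19.6 CPM in unheated ones, against 25.2 to 30.0 CPM in heat-shocked N2 and 21 to 25 CPM in unheated N2. The labels do not describe the sy975 lesion, so this level cannot check the genotype. Of 15386 genes tested, heat shock changed 3300 in affl-2 (1637 higher, 1663 lower) and 3314 in N2 (1465 higher, 1849 lower). Scaling by library size alone gave 930 higher and 2631 lower in affl-2, and 911 higher and 3487 lower in N2. That scaling moved the median log2 change of all genes by −0.142 for heat shock in affl-2 and −0.182 for heat shock in N2. For affl-2 against N2 it moved the median by 0.223 after heat shock and 0.183 without it, and the changes given here are from TMM scaling.

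The 6 genes lie on 4 chromosomes of build WBcel235, with the gene spans of Ensembl release 115. hsp-90 spans V:14684918-14688545 and sti-1 spans V:773518-774775, both on the plus strand. cdc-37 lies on the minus strand at II:577837-580593, and unc-45 on the plus strand at III:491547-502625. unc-23 spans V:8936359-8939684 on the plus strand, and bag-1 spans I:6563629-6564451 on the minus strand. The library kit does not mark strand, and 3 of the genes overlap a protein-coding gene on the opposite strand. These neighbours are C47E8.4 at the start of hsp-90, T19A5.3 at the end of unc-23 and tmed-3 beside bag-1, and reads from an overlap cannot be told apart. T19A5.3 and tmed-3 did not pass in any comparison.

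Heat shock raised all 6 genes in both genotypes. In affl-2 animals 6 of 6 passed the threshold as higher (edgeR quasi-likelihood test, Benjamini-Hochberg adjusted p under 0.05), where 10.6% of all genes tested did so. In N2 the count was again 6 of 6, against 9.52% of all genes. The median log2 change of the 6 genes was 0.75 in affl-2, beside 0.03 for all genes, and 1.05 in N2, beside −0.01 for all genes. In each genotype the BAG genes unc-23 and bag-1 had the highest changes of the 6. Leaving out any single library left 6 of 6 in both genotypes.

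**Figure D1:**
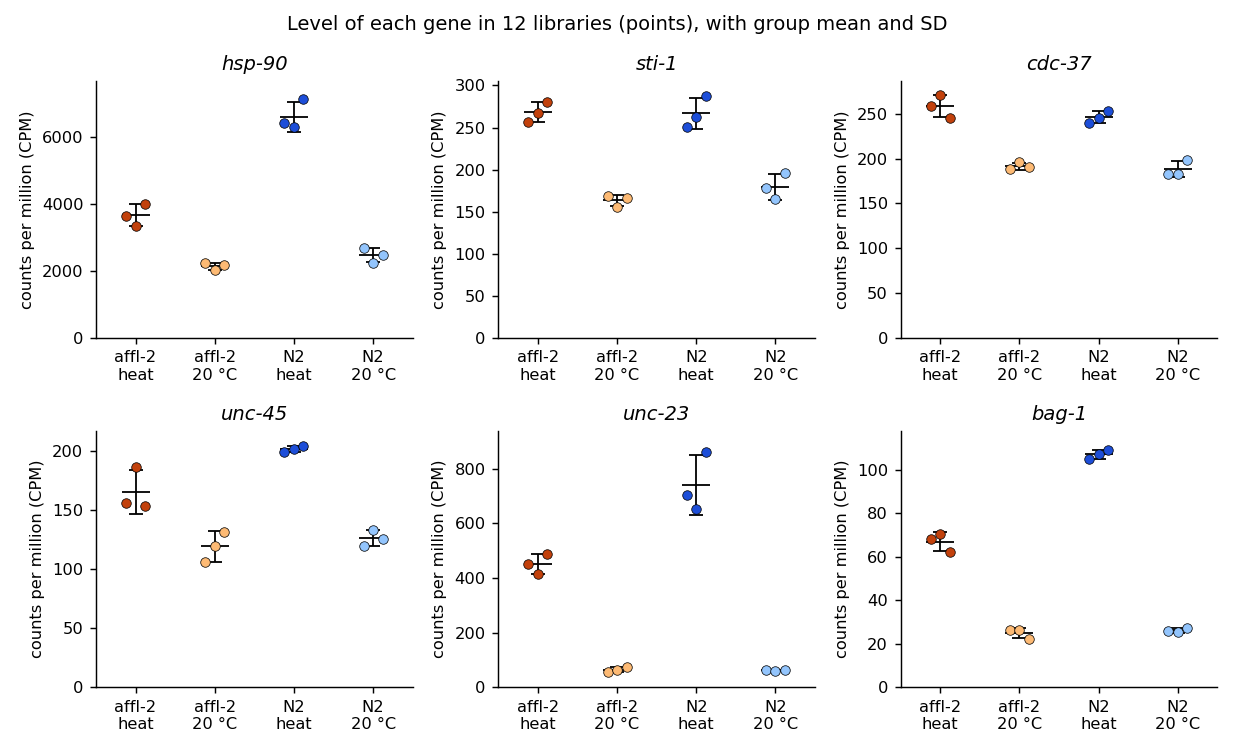
CPM of each of the 6 genes in the 12 libraries (points, 3 per group), with the group mean (horizontal mark) and SD (bars); every vertical axis starts at 0. hsp-90, unc-45, unc-23 and bag-1 were highest in heat-shocked N2, whereas for sti-1 and cdc-37 the heat-shocked groups of both genotypes overlapped.

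hsp-90 encodes the chaperone itself. Its level was 3656, 3347 and 4004 CPM in heat-shocked affl-2 animals, against 2222, 2019 and 2166 CPM in unheated affl-2 animals. In N2 it was 6414, 6310 and 7133 CPM after heat shock, against 2684, 2248 and 2478 CPM without it. In CPM no groups overlapped: all heat-shocked N2 libraries lay above all heat-shocked affl-2 libraries, which lay above every unheated library. The fitted rise was 1.72-fold in affl-2 (95% interval 1.46 to 2.02; log2 change 0.78 ± 0.11, SE; adjusted p = 0.00018) and 2.68-fold in N2 (2.27 to 3.16). Per length, hsp-90 stood at 1518 ± 35.6 TPM in heat-shocked and 1007 ± 84.7 TPM in unheated affl-2 animals (SD, n = 3 each), a gain of 512 TPM. In N2 it stood at 2371 ± 20.4 TPM with heat and 985 ± 62.4 TPM without, a gain of 1386 TPM. The overlapping gene C47E8.4 also rose with heat, by 0.98 ± 0.10 in affl-2 and 1.15 ± 0.10 in N2 on the log2 scale. It averaged 59.7 CPM in heat-shocked and 30.2 CPM in unheated affl-2 animals, and 61.6 CPM in heat-shocked and 27.9 CPM in unheated N2. Its part in the change of hsp-90 was not tested.

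sti-1 encodes the homolog of Hop, the adaptor that binds HSP70 and HSP90 at once. It had 257, 267 and 280.3 CPM in heat-shocked affl-2 animals, against 168, 156 and 166 CPM in unheated ones. N2 libraries gave 251, 263 and 287 CPM with heat, against 178, 165 and 196 CPM without. Heat-shocked and unheated libraries did not overlap in either genotype, and the heat-shocked libraries of affl-2 and N2 were interleaved. sti-1 rose 1.64-fold in affl-2 (1.43 to 1.88; adjusted p = 0.0001) and 1.49-fold in N2 (1.3 to 1.7; adjusted p = 0.000451).

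cdc-37 encodes the adaptor that recruits protein kinases to HSP90. In affl-2 it had 259, 271 and 246 CPM after heat shock, against 188, 196 and 191 CPM without. The N2 values were 239.6, 246 and 253 CPM with heat and 183, 183 and 199 CPM without. In CPM all heat-shocked libraries lay above all unheated ones, and within each condition the genotypes overlapped. In TPM, which have no TMM factor, cdc-37 was higher in affl-2 without overlap in both conditions. With heat it had 174 to 225 TPM in affl-2 and 155 to 172 TPM in N2. Without heat it had 161 to 168 TPM in affl-2 and 131 to 141 TPM in N2. Heat-shocked N2 thus overlapped unheated affl-2 in TPM. Its rise was the smallest of the 6 in both genotypes, 1.35-fold in affl-2 (1.2 to 1.52; adjusted p = 0.00171) and 1.31-fold in N2 (1.16 to 1.48; adjusted p = 0.00329). In N2 the cdc-37 call was lost with scaling by library size alone (log2 change 0.21, adjusted p = 0.0849).

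unc-45 encodes the UCS-domain chaperone that folds myosin heads together with HSP90. It measured 156, 187 and 154 CPM in heat-shocked affl-2 animals, against 106, 120.0 and 132 CPM in unheated ones. In N2 it measured 199.6, 202 and 204 CPM with heat, against 119.7, 133 and 126 CPM without. The heat-shocked N2 libraries were the highest and lay close together, and unheated libraries of the 2 genotypes overlapped. The rise was 1.39-fold in affl-2 (1.19 to 1.62; adjusted p = 0.00523) and 1.6-fold in N2 (1.37 to 1.87; adjusted p = 0.000319). Fitted on the affl-2 libraries alone, the rise in affl-2 did not pass (log2 change 0.43, adjusted p = 0.0552).

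unc-23 encodes a homolog of mammalian BAG2 and is needed to keep body-wall muscle attached to the hypodermis. The affl-2 libraries held 451, 414 and 489 CPM after heat shock, against 56.3, 63.6 and 73.6 CPM without it. The N2 libraries held 703, 653 and 863 CPM after heat shock, against 63.9, 60.5 and 63.8 CPM without it. Every heat-shocked N2 library was above every heat-shocked affl-2 library, and the unheated groups overlapped. unc-23 rose 7-fold in affl-2 (5.76 to 8.5; adjusted p = 6.8e-09) and 11.8-fold in N2 (9.65 to 14.4). In TPM the gain was 189 in affl-2, reaching 227 ± 4.02 TPM, and 291 in N2, reaching 322 ± 23.7 TPM (SD, n = 3 each). After heat shock unc-23 was below sti-1 in TPM in affl-2 animals, where sti-1 averaged 261 ± 20.9 TPM, and above it in N2, where sti-1 averaged 226 ± 9.51 TPM.

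bag-1 encodes a homolog of mammalian BAG1, a nucleotide exchange factor of HSP70. It stood at 68, 70.5 and 62.2 CPM in heat-shocked affl-2 animals, against 26.5, 26.3 and 22.1 CPM in unheated ones. Heat-shocked N2 animals had 105, 107 and 109 CPM, against 25.7, 25.5 and 27.5 CPM in unheated N2. The 3 levels, heat-shocked N2, heat-shocked affl-2 and unheated animals of either genotype, were separate, and the unheated groups overlapped. The rise was 2.68-fold in affl-2 (2.32 to 3.1; adjusted p = 4.0e-07) and 4.09-fold in N2 (3.53 to 4.74).

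The comparison of affl-2 with N2 after heat shock asked which of the 6 mRNAs reach a lower level in the mutant. Lower were 3 of 6, hsp-90, unc-23 and bag-1, and none was higher, where 9.57% of all genes tested were lower (1473 lower, 1561 higher). hsp-90 reached 0.554 of the N2 level (95% interval 0.471 to 0.652; log2 change −0.85 ± 0.11; adjusted p = 0.00013). unc-23 reached 0.61 of it (0.509 to 0.732; −0.71 ± 0.12; adjusted p = 0.00128), and bag-1 reached 0.624 (0.542 to 0.719; −0.68 ± 0.10; adjusted p = 0.000271). The cochaperones of HSP90 did not pass. sti-1 had a log2 change of 0.01 with an interval of −0.19 to 0.20, and cdc-37 one of 0.07 with an interval of −0.10 to 0.24. These intervals leave out a fall as large as that of hsp-90, unc-23 or bag-1. Over the alternatives the change of sti-1 ran from −0.04 to 0.23, with no adjusted p under 0.0514. In TPM, with no scaling between libraries, sti-1 had 244, 284 and 255 in heat-shocked affl-2 and 217, 236 and 226 in heat-shocked N2. The median of the 6 was −0.48, beside 0.04 for all genes.

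unc-45 lay between these extremes after heat shock, with a log2 change of −0.29 (interval −0.51 to −0.06; adjusted p = 0.0666). Its libraries of affl-2 and N2 did not overlap in CPM. Its TPM overlapped, at 41.2, 55.3 and 38.9 in heat-shocked affl-2 and 48, 50.2 and 44.7 in heat-shocked N2. With the replicate number as a block, and the numbers of 2 unheated affl-2 libraries exchanged, unc-45 passed as lower (adjusted p = 0.0305). The count was then 4 of 6, where 16.2% of all genes were lower and 5155 genes passed in all, against 3034 without the block. unc-45 also passed without heat-shocked affl-2 replicate 2 (−0.39, adjusted p = 0.0143) and without unheated affl-2 replicate 1 (−0.29, adjusted p = 0.0449). With library size alone its difference was −0.06 (adjusted p = 0.7). Under scaling by library size alone, 4868 genes were higher and 831 lower in affl-2. The calls of hsp-90, unc-23 and bag-1 held there, and cdc-37 passed as higher (0.30, adjusted p = 0.0146), near the shift of the median gene.

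Without heat shock, none of the 6 genes passed between affl-2 and N2, where 6.69% of all genes were higher and 7.29% lower (1029 and 1121 genes; 2737 and 649 under library size alone). DESeq2 also called none of the 6, where it called 16.7% of all genes. In edgeR none reached an unadjusted p of 0.05, where 28.5% of all genes did. The nearest was hsp-90, with a log2 change of −0.21 (interval −0.44 to 0.02; adjusted p = 0.22), −0.03 under library size alone. Its CPM were lower in all 3 affl-2 libraries, while its TPM overlapped, at 1094, 925 and 1000 in affl-2 and 1057, 953 and 945 in N2. The other 5 genes had log2 changes between −0.14 (sti-1, interval −0.33 to 0.06) and 0.04 (unc-23, interval −0.22 to 0.31). With the block and exchanged numbers 3604 genes passed in all, 23.4%, and none of the 6 was among them.

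**Figure D2:**
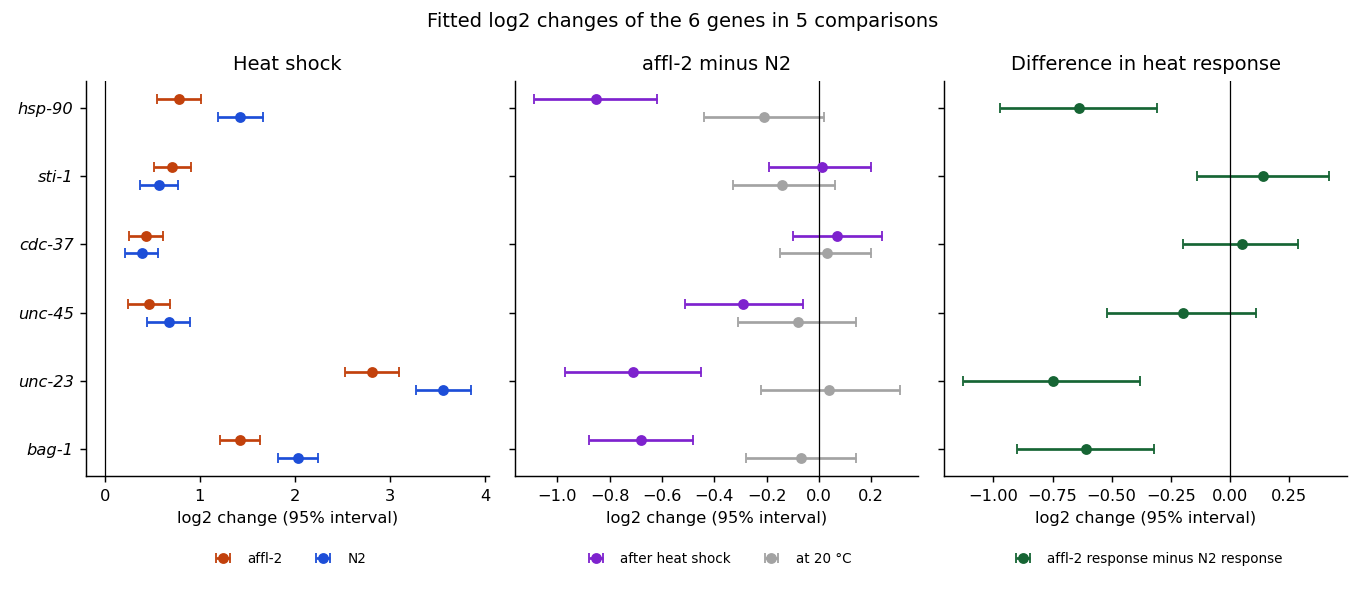
Fitted log2 changes (points) with 95% intervals (bars) for the 6 genes: left, heat shock in affl-2 and in N2; middle, affl-2 minus N2, both heated and at 20 °C; right, the heat response in affl-2 minus that in N2. The intervals of hsp-90, unc-23 and bag-1 lie below 0 in the right panel, and those of sti-1, cdc-37 and unc-45 include 0.

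The interaction, the heat shock change in affl-2 minus that in N2, tests whether the response itself differed. None of the 6 passed in edgeR after adjustment over all genes, where 0.715% of genes passed in either direction (7 higher; 103 lower, or 0.669%). At an unadjusted p under 0.05, 3 of the 6 were smaller in affl-2, hsp-90, unc-23 and bag-1, where 3.56% of all genes were. DESeq2 called the same 3 after adjustment, where it called 1.26% of all genes as lower. hsp-90 had an interaction of −0.64 (interval −0.97 to −0.31; adjusted p = 0.087), unc-23 one of −0.75 (−1.13 to −0.38; adjusted p = 0.0754) and bag-1 one of −0.61 (−0.90 to −0.32; adjusted p = 0.0624). With the replicate block and exchanged numbers all 3 passed, at −0.65 for hsp-90 (adjusted p = 0.0122), −0.74 for unc-23 (adjusted p = 0.00212) and −0.61 for bag-1 (adjusted p = 0.0226). In that fit 1.19% of all genes were lower, and 221 genes passed in place of 110.

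For the cochaperones the interaction was 0.14 for sti-1 (interval −0.14 to 0.42), 0.05 for cdc-37 (−0.20 to 0.29) and −0.20 for unc-45 (−0.52 to 0.11). None of these had an unadjusted p under 0.05. Single libraries moved the calls of the others: unc-23 passed without unheated affl-2 replicate 1 (−0.89, adjusted p = 0.0233). bag-1 passed without unheated affl-2 replicate 3 (−0.74, adjusted p = 0.0202) and without heat-shocked affl-2 replicate 2 (−0.70, adjusted p = 0.0409).

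Because hsp-90, the cochaperones and the BAG genes rose to different extents, their proportions to hsp-90 differed between groups. The proportion is given as TPM of a gene for each 100 TPM of hsp-90 in the same library, which needs no scaling between libraries. sti-1 stood at 16.5, 18.7 and 16.4 in heat-shocked affl-2 animals and 17.9 ± 0.19 in unheated ones (SD, n = 3), which overlapped. In N2 it stood at 9.22, 9.86 and 9.54 with heat and 15.5, 17.1 and 18.4 without, a drop to 0.561 of the unheated proportion.

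The proportion of cdc-37 was 13 ± 1.81 in heat-shocked and 16.4 ± 1.17 in unheated affl-2 animals, and 6.87 ± 0.32 in heat-shocked and 14 ± 1.41 in unheated N2 (SD, n = 3 each). For unc-45 it was 2.97 ± 0.592 and 3.64 ± 0.48 in heat-shocked and unheated affl-2 animals, and 2.01 ± 0.108 and 3.34 ± 0.464 in heat-shocked and unheated N2. All 3 cochaperones were thus lower in heat-shocked than in unheated N2 without overlap, as were 92.9% of all genes with a TPM ratio. In affl-2 only cdc-37 of the 3 was lower without overlap, where 76.0% of all genes were. Between genotypes after heat shock all 3 were higher in affl-2 without overlap, with 81.5% of all genes, so the cochaperones moved against hsp-90 as most genes did.

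With heat, the proportions of the BAG genes went the other way in each genotype. unc-23 stood at 15, 15 and 14.9 TPM per 100 TPM of hsp-90 in heat-shocked affl-2 animals and 3.15, 3.99 and 4.18 in unheated ones. In N2 it stood at 13.4, 12.6 and 14.7 with heat and 2.95, 3.37 and 3.19 without. bag-1 stood at 9.14, 10.4 and 7.62 in heat-shocked and 5.84, 6.38 and 5 in unheated affl-2 animals. In N2 bag-1 stood at 8.09, 8.42 and 7.6 with heat and 4.69, 5.52 and 5.42 without. Both were higher with heat without overlap in affl-2, where 1.79% of all genes were, and in N2, where 1.16% were. After heat shock the proportion of bag-1 overlapped between the genotypes. That of unc-23 was 1.1 times higher in affl-2 without overlap, where 81.5% of all genes were higher without overlap.

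**Figure D3:**
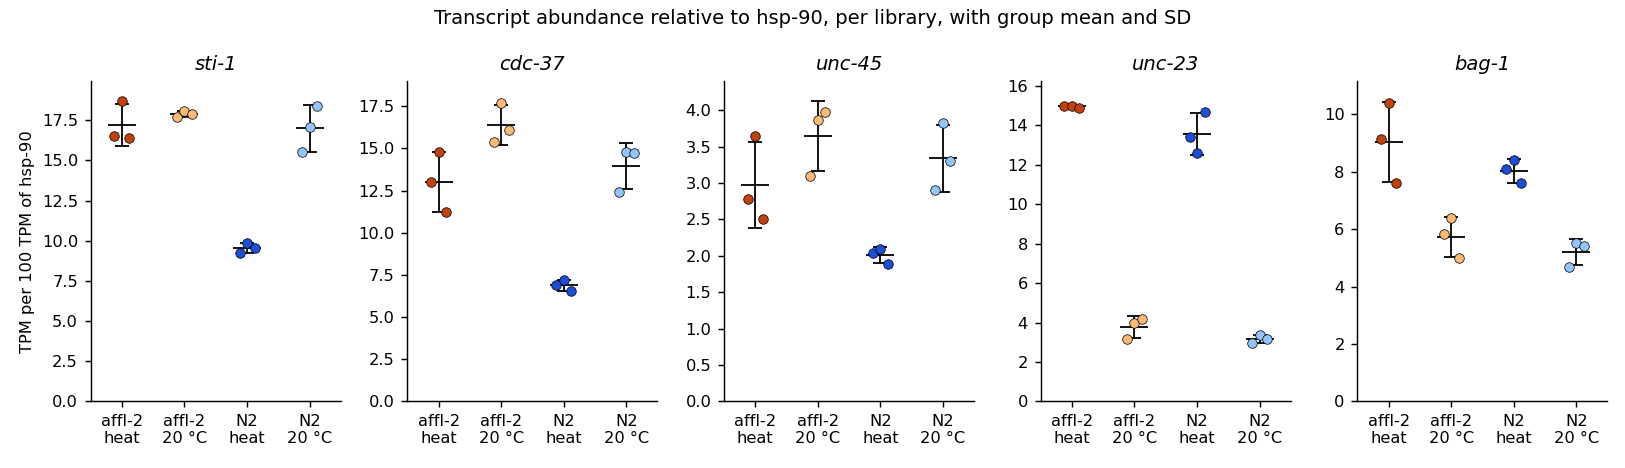
TPM of each of the other 5 genes per 100 TPM of hsp-90 in the same library (points, 3 per group), with group mean (horizontal mark) and SD (bars); axes start at 0. sti-1, cdc-37 and unc-45 were lowest in heat-shocked N2, and unc-23 and bag-1 were higher in the heat-shocked groups of both genotypes.

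The tables list 4 transcripts of hsp-90, between which kallisto divided the reads by estimation. They are named here as in the deposited tables, whose numbering differs from that of release 115. C47E8.5.1 had 632 ± 58.7 TPM in heat-shocked and 364 ± 38.5 TPM in unheated affl-2 animals, and 1367 ± 90.9 TPM in heat-shocked and 345 ± 52.9 TPM in unheated N2 (SD, n = 3 each). It made up 57.6 ± 4% of hsp-90 TPM in heat-shocked N2 and 34.9 ± 3.72% in unheated N2, without overlap. In affl-2 its share was 41.6 ± 2.92% with heat and 36.4 ± 5.5% without, and these overlapped. After heat shock the C47E8.5.1 share was thus lower in affl-2 than in N2 in every library.

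C47E8.5.4, with 2227 nt the shortest of the 4, showed the opposite pattern in its share. It held 32.6 ± 1.03% in heat-shocked and 37.7 ± 2.56% in unheated affl-2 animals, and 18.2 ± 4.58% in heat-shocked and 40.7 ± 3.6% in unheated N2. Its level was 495 ± 5.36 TPM with heat and 381 ± 57.3 TPM without in affl-2. In N2 it was 432 ± 108 TPM with heat and 399 ± 20.4 TPM without, with overlap between the groups. C47E8.5.3 was higher in TPM with heat in both genotypes while its share overlapped between groups, averaging 25.8% in heat-shocked affl-2, 25.7% in unheated affl-2, 24.1% in heat-shocked N2 and 24.4% in unheated N2. C47E8.5.2 held at most 0.275% of hsp-90 TPM in any library.

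Release 115 has a transcript of 2227 nt, the length of C47E8.5.4, that starts at position 14686160, while its other hsp-90 transcript starts upstream, at 14684918. The gene C47E8.4, on the minus strand, spans 14683698 to 14685485 and so overlaps the upstream start and not the downstream one. This match rests on length only. The upstream transcript has 2359 nt in release 115, near the 2357 nt of C47E8.5.1, and no other deposited hsp-90 transcript has either release 115 length.

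unc-23 has 6 transcripts in the tables. H14N18.1a, whose namesake in release 115 starts farthest upstream, had 174 ± 6.21 TPM in heat-shocked and 21.9 ± 6.52 TPM in unheated affl-2 animals, 7.92 times as much. In N2 it had 264 ± 27 TPM with heat and 17 ± 0.982 TPM without, 15.5 times as much. The b and c transcripts together had 53 ± 4.98 TPM in heat-shocked and 15.8 ± 3.09 TPM in unheated affl-2 animals, and 58 ± 4.47 TPM in heat-shocked and 14.2 ± 1.92 TPM in unheated N2. These ratios were 3.36 in affl-2 and 4.1 in N2, smaller than those of H14N18.1a. The share of H14N18.1a was 76.6 ± 2.21% with heat and 57.5 ± 11.3% without in affl-2, and 81.9 ± 2.41% with heat and 54.6 ± 4.75% without in N2, with no overlap in either genotype. Of the b and c transcripts, b.1 with c.1 and b.2 with c.2 had identical counts in all 12 libraries and were not told apart. cdc-37 has 2 transcripts in the tables, and their shares overlapped between groups in all comparisons.

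**Figure D4:**
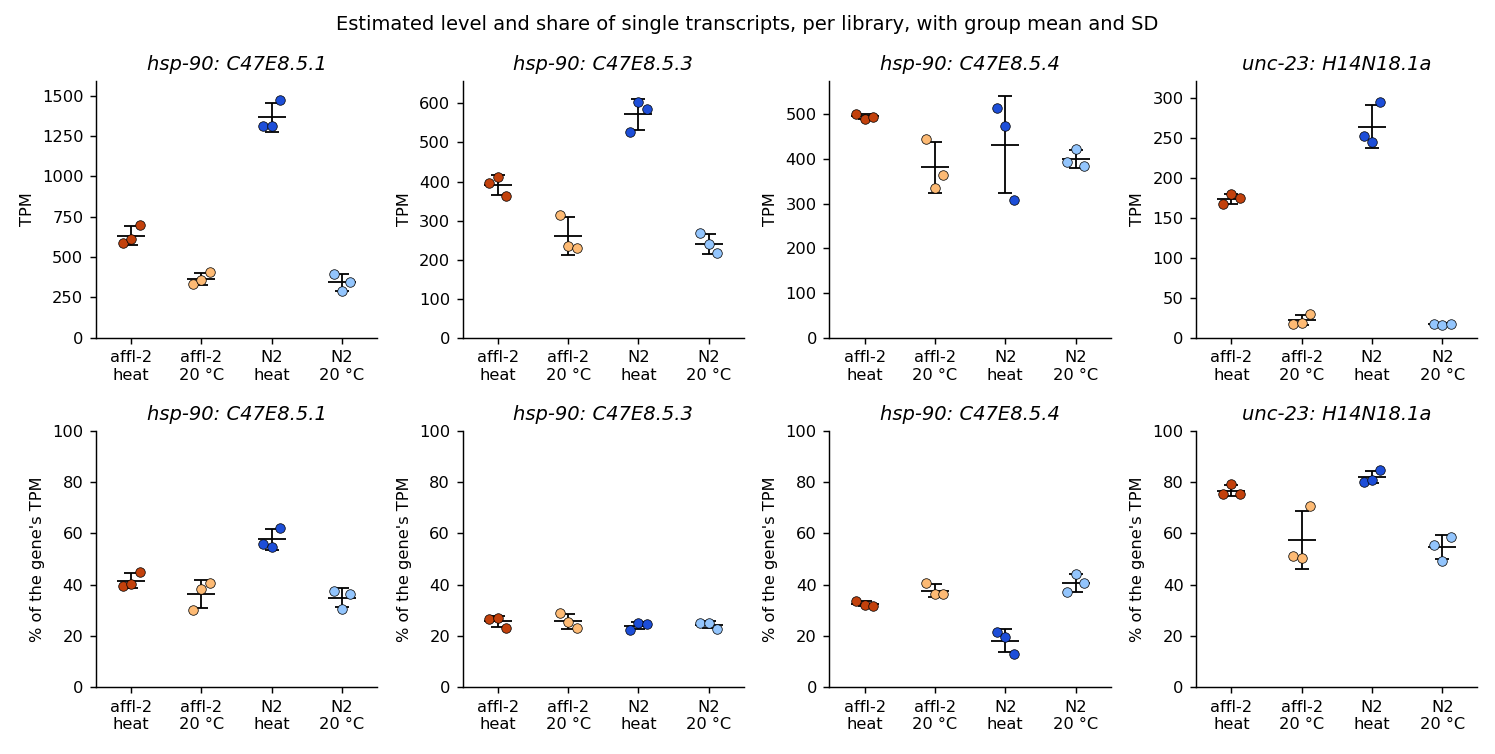
Estimated TPM (top) and share of the gene's TPM in percent (bottom) of 3 hsp-90 transcripts and 1 unc-23 transcript in the 12 libraries (points), with group mean (horizontal mark) and SD (bars). The share of C47E8.5.1 was highest in heat-shocked N2, where that of C47E8.5.4 was lowest, and the share of H14N18.1a was higher with heat in both genotypes.

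The other HSP90 cochaperones were read from a list of 8 genes: daf-41 (p23), ahsa-1 (the ATPase activator Aha1), pph-5 (protein phosphatase 5), fkb-6 (an FK506-binding protein with TPR repeats), chn-1 (the ubiquitin ligase CHIP), sgt-1, nud-1 (NudC) and the mitochondrial import receptor tomm-70. Heat shock raised 4 of 8 in affl-2, where 10.6% of all genes tested rose, and 4 of 8 in N2, where 9.52% did. The median log2 change of the list was 0.27 in affl-2 and 0.28 in N2, beside 0.03 and −0.01 for all genes. fkb-6 had 437, 454 and 455 CPM in heat-shocked affl-2 animals, against 258, 256 and 267 CPM in unheated ones. In N2 it had 452, 450.4 and 511 CPM with heat, against 272, 254 and 280.0 CPM without. It rose by 0.79 ± 0.09 in affl-2 (adjusted p = 2.7e-05) and 0.81 ± 0.09 in N2 (adjusted p = 1.3e-05) on the log2 scale, beside 0.71 in affl-2 and 0.57 in N2 for sti-1.

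sgt-1 rose by 0.58 in affl-2 and 0.83 in N2, ahsa-1 by 0.68 in affl-2 and 0.54 in N2, and daf-41 by 0.39 in affl-2 and 0.31 in N2. The daf-41 calls were lost with library size alone (0.25, adjusted p = 0.0551 in affl-2; 0.12, adjusted p = 0.325 in N2). daf-41 in N2 also lost its call without any of unheated N2 replicate 2 (adjusted p = 0.0782), heat-shocked N2 replicate 2 (0.0758) or heat-shocked N2 replicate 3 (0.0541). tomm-70 fell by 0.28 in affl-2 (adjusted p = 0.028), a call lost on leaving out unheated affl-2 replicate 1 (adjusted p = 0.0603), heat-shocked affl-2 replicate 1 (0.101) or heat-shocked affl-2 replicate 3 (0.0696). pph-5, chn-1 and nud-1 did not pass in either genotype.

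After heat shock 1 of the 8 other cochaperones was lower in affl-2 than in N2, where 9.57% of all genes were lower. It was nud-1, at −0.45 ± 0.13 (adjusted p = 0.0263), and the list median was −0.11. nud-1 libraries overlapped between the genotypes, and its call was lost with library size alone (−0.22, adjusted p = 0.252). It was lost too without heat-shocked N2 replicate 1 (adjusted p = 0.0855) or 2 (0.113), or heat-shocked affl-2 replicate 1 (0.112) or 3 (0.101). With the block and exchanged numbers 3 of 8 were lower, where 16.2% of all genes were. Without heat shock and in the interaction none of the 8 passed in edgeR or DESeq2, and in each of these 1 of 8, tomm-70, had an unadjusted p under 0.05, where 28.5% of all genes did without heat shock and 6.67% in the interaction.

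The HSP90 genes of other compartments did not pass with heat in either genotype in the fit without a block, a result that for hsp-75 in N2 depended on the setting. hsp-75 encodes the mitochondrial HSP90 (TRAP1) and enpl-1 that of the endoplasmic reticulum (GRP94). hsp-75 had 118, 139 and 109 CPM in heat-shocked affl-2 animals, against 120.2, 102 and 114 CPM in unheated ones. In N2 it had 143, 145 and 140.1 CPM with heat, against 122, 112 and 115 CPM without. Nor did either gene pass in another comparison in edgeR. The heat shock change of hsp-75 was 0.12 in affl-2 (interval −0.09 to 0.34) and 0.29 in N2 (0.08 to 0.51; adjusted p = 0.0531), and with the block and exchanged numbers it passed in N2 (adjusted p = 0.0201). It also passed in N2 without unheated affl-2 replicate 1 (0.0367), 2 (0.0436) or 3 (0.0484), or heat-shocked affl-2 replicate 2 (0.0141) or 3 (0.042), all adjusted p. RLE scaling (0.043), a minimum count of 50 (0.0486), the block from the titles (0.0487) and a fit of the N2 libraries alone (0.0227) passed it too, and 10 of 21 alternatives left it short of the threshold. That of enpl-1 was 0.07 in affl-2 (−0.18 to 0.32) and 0.12 in N2 (−0.13 to 0.37). At an unadjusted p under 0.05 stood hsp-75 for heat shock in N2 and for the genotypes after heat shock, and DESeq2 called 1 of the pair for heat shock in N2.

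**Figure D5:**
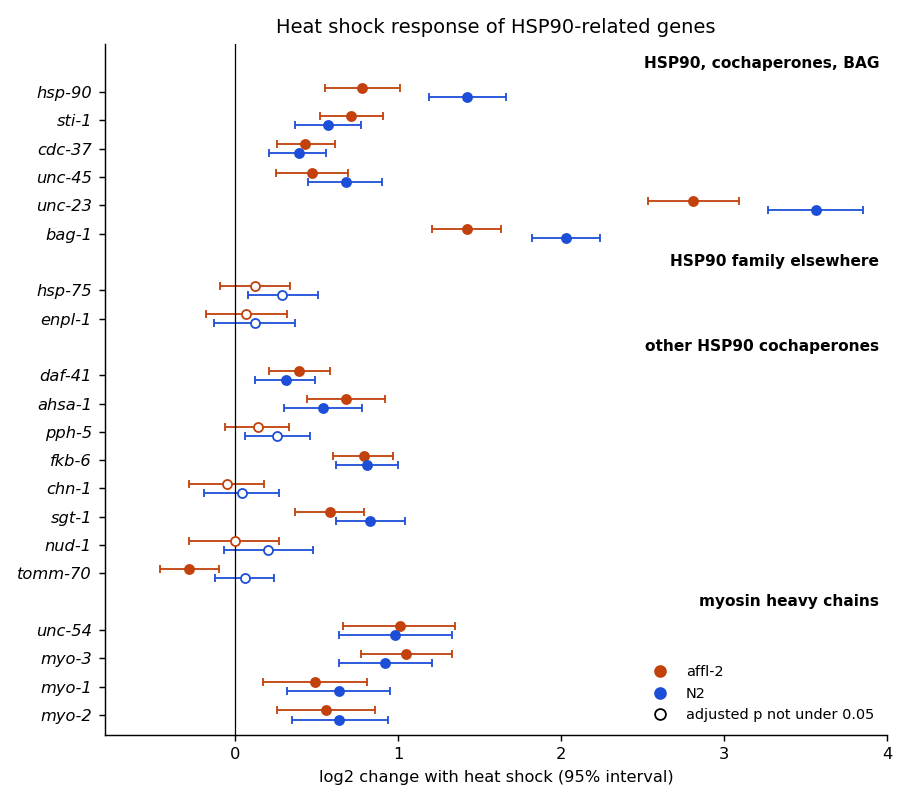
Log2 change with heat shock (points) and 95% intervals (bars) in affl-2 and in N2 for the 6 genes, the HSP90 genes of other compartments, 8 other HSP90 cochaperones and 4 myosin heavy chains; open points had an adjusted p not under 0.05. unc-23 and bag-1 have the highest changes, and hsp-75 and enpl-1 are open in both genotypes.

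Myosin heavy chains are the clients of UNC-45 with HSP90. All 4 rose with heat in both genotypes: the body-wall genes unc-54 by 1.01 in affl-2 and 0.98 in N2 and myo-3 by 1.05 in affl-2 and 0.92 in N2, and the pharyngeal genes myo-1 by 0.49 in affl-2 and 0.64 in N2 and myo-2 by 0.56 in affl-2 and 0.64 in N2. Of all genes tested, 10.6% rose in affl-2 and 9.52% in N2. The affl-2 calls of myo-1 and myo-2 were lost with library size alone (adjusted p = 0.12 and 0.0526). The call of myo-1 in affl-2 was lost without any 1 of 5 of the 6 affl-2 libraries, all but heat-shocked replicate 3 (adjusted p between 0.0627 and 0.0934). After heat shock myo-2 was lower in affl-2 (−0.43, adjusted p = 0.0451) and the other 3 did not pass, where 9.57% of all genes were lower. With library size alone the myo-2 call was lost (−0.20, adjusted p = 0.302). The call of myo-2 was also lost without any 1 heat-shocked N2 library, heat-shocked affl-2 replicate 1 or 3, unheated affl-2 replicate 2 or unheated N2 replicate 3 (adjusted p between 0.053 and 0.141).

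Muscle markers moved with heat beside these genes. In the list of unc-15, unc-22, unc-27, mup-2 and lev-11, 5 of 5 rose in affl-2 and 2 of 5 in N2. Of all genes tested, 10.6% rose in affl-2 and 9.52% in N2. Their summed level was 7210 to 8038 CPM in heat-shocked and 5115 to 5986 CPM in unheated affl-2 animals, and 8739 to 8876 CPM in heat-shocked and 5902 to 7449 CPM in unheated N2. Between genotypes, germline markers (pgl-1, glh-1, gld-1, glp-1, him-3) were lower in affl-2, 3 of 5 after heat shock and 4 of 5 without it. Of all genes tested, 9.57% were lower in affl-2 after heat shock and 7.29% without it. The germline markers summed to 1465 to 2038 CPM in heat-shocked affl-2 and 2250 to 2605 CPM in heat-shocked N2. Unheated, they summed to 1405 to 1881 CPM in affl-2 and 2172 to 2337 CPM in N2. Hypodermis markers (dpy-7, rol-6, dpy-13, bli-1, elt-3) summed to 1366 to 1674 CPM in heat-shocked affl-2 and 2245 to 3222 CPM in heat-shocked N2. Unheated, they summed to 624 to 1382 CPM in affl-2 and 1683 to 2201 CPM in N2. Of these hypodermis markers 1 of 5 was lower in affl-2 after heat shock, where 9.57% of all genes were. Without heat shock 2 of 5 were lower, where 7.29% of all genes were. Most of each sum was dpy-13, which averaged 1370 CPM in heat-shocked and 717 CPM in unheated affl-2 animals. In unheated affl-2 animals bli-1 ranged from 13.5 to 140.2 CPM. Without heat shock elt-3 went the other way, at 37.2 to 41.4 CPM in affl-2 against 25.5 to 32.9 CPM in N2. All 5 markers of each list were detected in all 12 libraries, as in the whole animals that the labels name. The part of these differences in the changes of hsp-90, unc-23 and bag-1 was not tested.

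Likeness was measured as Pearson's r of log2 CPM over the 12 libraries, which share the 4 groups, against 9589 genes with an average log2 CPM of at least 3. For hsp-90 the nearest were aip-1 (0.989), an arsenite-inducible gene, Y43F8B.2 (0.989) and W03F9.1 (0.987). For sti-1 they were fkb-6 (0.985), the chaperonin subunit gene cct-1 (0.982) and the HSP40 gene dnj-19 (0.981). Those of cdc-37 were Y39B6A.25 (0.986), Y17G7B.17 (0.979) and K03H1.11 (0.974), and those of unc-45 were adt-1 (0.978), catp-8 (0.975) and F33H12.6 (0.972). For unc-23 the nearest were cebp-1 (0.996), ZK1010.8 (0.996) and the HSP40 gene dnj-12 (0.994), and for bag-1 Y53F4B.8 (0.996), R107.5 (0.994) and Y53F4B.62 (0.992). Among the 6 genes themselves r ran between 0.766 for hsp-90 with cdc-37 and 0.982 for unc-23 with bag-1.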

How the data were processed

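RNA-seq of 12 libraries (4 groups of 3) was used. Per the labels' protocols, poly(A) RNA was fragmented and read as single reads of 50 nt with a kit that does not mark strand. Per the submitters' processing notes, base calls were converted with bcl2fastq 1.8.4 and quantified with kallisto on build WBcel235. The kallisto version and its annotation are not given in the sources used here. Each deposited table has, per the file headers, an estimated count, TPM and an effective length (another quantity, in nt) for 35862 transcripts. The authors' estimated counts were here summed over transcripts by sequence name to 22010 genes and rounded; 21842 matched Ensembl release 115 and 168 did not. The deposited TPM were summed likewise, with no TMM factor applied. Depth was 17.97 to 22.66 M counts per library.

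Genes were filtered with filterByExpr (minimum count 10), leaving 15386 tested and 6624 set aside, and all 6 members passed. edgeR 4.0.16 in R 4.3.3 fitted the 4 group means with TMM factors (0.847 to 1.15) and robust quasi-likelihood F tests, with 8 residual degrees of freedom and a common biological coefficient of variation of 0.147. p-values were Benjamini-Hochberg adjusted over all genes tested, with a threshold of 0.05, in 5 comparisons. Intervals and SE are from the fit. Ratios and transcript shares were described per library with no test.

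The members and lists were chosen with earlier results of these data known. Text names the 6 members, hsp-75, enpl-1, up to 4 genes per list with the smallest adjusted p, and the 3 genes most like each member; the other listed genes were named after their values were seen. Lists covered HSP90 relatives, cochaperones, the cytosolic HSP70 system, myosins and markers of muscle, intestine, neuron, hypodermis and germline. Alternatives were RLE scaling, library size alone, no filter, a minimum count of 50, transcript length offsets, DESeq2 1.42.0, fits of 2 groups, replicate blocks and leaving out each library.

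Replicate numbers recur in all groups. The descriptions and the files of unheated affl-2 replicates 1 and 2 name each other's project number, so which number each carries is unsure. With the numbers in the titles, deviations from group means correlated between same-numbered libraries at −0.341 to 0.351, with 13 of 18 pairs over 0.1. With those 2 numbers exchanged all 18 pairs lay between 0.116 and 0.351, so the numbers were taken to pair the samples. The main tests did not use this pairing, and the blocked fits are given beside them as alternatives. With the exchanged block hsp-90, unc-23 and bag-1 passed in the interaction, and unc-45 passed as lower in heat-shocked affl-2. The 2 libraries with unsure numbers belong to the same group, so the exchange changes no value outside the blocked fits.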

Additional observations from a re-analysis of the deposited data

Results flagged for a closer look

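Among the listed partners of the 6 genes, 4 of 9 genes of the cytosolic HSP70 system had a heat shock change in affl-2 that differed from that in N2 by edgeR's interaction test. Of all genes tested, 0.715% passed that test in either direction. hsp-110, the HSP70 exchange factor of the HSP110 family, differed by −1.20 on the log2 scale (adjusted p = 0.000364), rising 4.17-fold in affl-2 and 9.59-fold in N2. The HSP40 gene dnj-13 differed by −1.01 (adjusted p = 0.00113), rising 3.3-fold in affl-2 and 6.64-fold in N2. The heat-inducible hsp-70 differed by −3.49 (adjusted p = 0.0131), rising 60.4-fold in affl-2 (95% interval 32 to 114) and 676-fold in N2 (339.9 to 1344). Unheated, hsp-70 was near the floor, at 0.873 to 2.65 CPM in affl-2 and 2.02 to 7.04 CPM in N2. Its call was lost without unheated affl-2 replicate 2 (−3.11, adjusted p = 0.0591), heat-shocked affl-2 replicate 2 (−3.48, adjusted p = 0.0774) or heat-shocked affl-2 replicate 3 (−3.53, adjusted p = 0.0502). The constitutive hsp-1 differed by −0.78 (adjusted p = 0.0151), rising 1.28-fold in affl-2 and 2.19-fold in N2, and its call was lost without heat-shocked affl-2 replicate 1 (adjusted p = 0.0561).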

How the results depend on the processing

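Over 21 alternatives for each comparison of a pair of groups and 20 for the interaction, 586 of 624 results for the 6 genes kept their direction and side of the threshold. The heat shock calls of hsp-90, sti-1, unc-23 and bag-1 held in both genotypes under all of them, as did the lower levels of hsp-90, unc-23 and bag-1 in heat-shocked affl-2. Of the 6 genes, those passing in the interaction numbered 0 in edgeR, 1 with RLE scaling, 2 with library size alone, 1 with no filter, 2 with the replicate block from the titles, 3 with the replicate block and exchanged numbers, 3 with DESeq2, and 0 to 1 leaving out 1 library. All genes passing in the interaction numbered 110, against 221 with the exchanged replicate block and 216 with DESeq2. For affl-2 against N2 after heat shock, 3034 genes became 5699 with library size alone, 5155 with the exchanged block and 1475 to 3897 leaving out 1 library. The lowest were 1763 and 1726 without heat-shocked N2 replicates 1 and 2, and 1475 and 1947 without heat-shocked affl-2 replicates 1 and 3. Without heat shock, 2150 became 3386, 3604 and 1220 to 2550 under the same alternatives, with 1422 and 1220 without unheated N2 replicates 1 and 3 and 1228 without unheated affl-2 replicate 2. For those of the counts that moved, the cause was not tested. Besides its 3 interaction calls, the exchanged block passed unc-45 as lower in heat-shocked affl-2 (adjusted p = 0.0305), as did the block from the titles (0.0405). The exchanged block changed no further call of the 6 genes.

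Values that turned sign were all short of the threshold. With library size alone these were, for heat shock, hsp-75 in affl-2 (−0.02) and enpl-1 in affl-2 (−0.07) and N2 (−0.06), and, without heat shock, sti-1 (0.05), unc-45 (0.10) and bag-1 (0.12). The difference of sti-1 after heat shock was −0.01 with RLE scaling, in a fit of 2 groups and in DESeq2. Leaving out 1 library gave, with heat in affl-2, −0.01 to 0.20 for hsp-75 and −0.05 to 0.14 for enpl-1. For affl-2 against N2 it gave −0.04 to 0.08 for sti-1 after heat shock and, without it, −0.11 to 0.04 for unc-45, −0.02 to 0.17 for unc-23 and −0.10 to 0.06 for bag-1. The interaction of cdc-37 ranged over −0.04 to 0.08.

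From CPM per kb the proportion of unc-23 to hsp-90 in heat-shocked affl-2 was 15.1, against 14.9 TPM per 100. As shares of counts C47E8.5.3 held 25.7% in heat-shocked and 26.4% in unheated N2, and C47E8.5.4 held 30.6% in heat-shocked affl-2. Depth set no limit for the 6 genes, which had at least 22.1 CPM in every library; with 3 libraries per group small differences between genotypes could not be told from none.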

Other observations

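The cytosolic HSP70 system (hsp-1, hsp-70, F44E5.4, F44E5.5, hsp-110, hip-1, dnj-12, dnj-13 and dnj-19), on which the BAG proteins act, rose with heat in 9 of 9 genes in affl-2 and in N2. Of all genes tested, 10.6% rose in affl-2 and 9.52% in N2. The median log2 change of the 9 was 1.72 in affl-2 and 2.73 in N2, against 0.75 and 1.05 for the 6 genes of the report. After heat shock 5 of 9 were lower in affl-2 than in N2, with a median of −1.11, where 9.57% of all genes were lower. Without heat shock 1 of 9, F44E5.5, was lower, where 7.29% of all genes were. Intestine markers (elt-2, ges-1, pept-1, ifb-2, vha-6) fell with heat in 2 of 5 cases in each genotype. Of all 15386 genes tested, 1663 fell in affl-2 and 1849 in N2. Neuron markers (snt-1, rab-3, unc-104, unc-13, ric-4) fell in 2 of 5 in affl-2 and 3 of 5 in N2, and 1 of 5 rose in each genotype.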
